A study of Mus musculus with 18 samples.

Results

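The 10 genes described here are antioxidant enzymes and metallothioneins of the beta cell: Hmox1, Nqo1, Gpx1, Gpx3, Gpx4, Gclm, Txnrd1, Srxn1, Mt1 and Mt2. They were taken by name from a table of 53090 genes, and all 10 were among the 19284 genes with enough counts to be tested. RNA was sequenced from beta cells sorted out of dispersed mouse islets by light scatter and their own fluorescence, after a night in culture. Donor mice were liver-specific insulin receptor knockouts, named LIRKO, or controls, named Ctrl, and their diet is labelled Chow or HFD. On chow there are 6 Ctrl and 4 LIRKO libraries, and on HFD 5 and 3, which makes 18. All groups share the islet isolation, trypsin digestion and sort. The labels name neither the Cre line, strain, age, sex and length of the diet, nor which libraries come from separate animals, so p-values here speak only of variation among the libraries, part or all of which may be technical.

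Beta cells are known for low levels of several enzymes that remove hydrogen peroxide. NRF2, a transcription factor held in check by KEAP1, raises transcription of many antioxidant genes through antioxidant response elements, while the zinc sensor MTF1 drives the metallothionein genes through metal response elements. Glutathione peroxidases reduce peroxides with glutathione, thioredoxin reductase and sulfiredoxin keep the thioredoxin and peroxiredoxin system working, and metallothioneins bind zinc and copper. Heme oxygenase breaks heme down to biliverdin, iron and carbon monoxide.

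Some libraries stood apart. LIRKO chow replicates 1 and 2 were near-identical, as were replicates 3 and 4. Over 11230 genes, the log2 ratio within these 2 pairs had a median absolute deviation of 0.0928 and 0.108, against at least 0.178 in the 32 other pairs within a group. Ctrl HFD replicates 1 and 2 had the lowest total counts and 1.37% and 1.06% of their counts in the nuclear RNA Malat1, against at most 0.600% elsewhere. Totals ran from 19490235 to 51714775 counts per library, and the lowest count of any of the 10 genes in a library was 126, for Nqo1. Levels are in CPM, read counts scaled to a common library size, with the standard deviation (SD) between libraries. The 10 beta cell markers checked were detected in every group, with summed levels of 99830 to 234136 CPM. Macrophage markers (14 genes) summed to 104 to 303 CPM and endothelial markers (10 genes) to 18.9 to 330 CPM, and in neither list was a marker at 0 across a group. Other lists reached more: alpha cell markers (7 genes) 781 to 4684 CPM, PP cell (3 genes) 127 to 1937 and duct (6 genes) 770 to 1374. Delta cell markers (4 genes) summed to 114 to 890 CPM, with 1 at 0 in each group. Acinar markers (11 genes) summed to 9.35 to 574 CPM, with 1 or 2 at 0 in each group. In bulk RNA, fewer cells of a type and less RNA per cell cannot be told apart.

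In beta cells of chow-fed LIRKO mice, Hmox1 was 3.58-fold and Gpx3 4.34-fold higher than in those of chow-fed Ctrl mice, and Mt1 was 2.11-fold lower. These 3 of the 10 genes passed at an adjusted p under 0.05, where 5.15% of all tested genes did. In LIRKO beta cells Srxn1 was 1.88-fold lower on HFD than on chow. In Ctrl beta cells Gpx3 was 2.48-fold higher on HFD, and on HFD none of the 10 genes passed between genotypes. With each near-identical pair of LIRKO chow libraries summed, only Gpx3 between genotypes on chow still passed. The Gpx3 rise on HFD in Ctrl passed in 14 of 24 alternative settings. The tests are those of edgeR's quasi-likelihood model over all 18 libraries, with Benjamini-Hochberg adjustment over all tested genes.

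**Figure D1:**
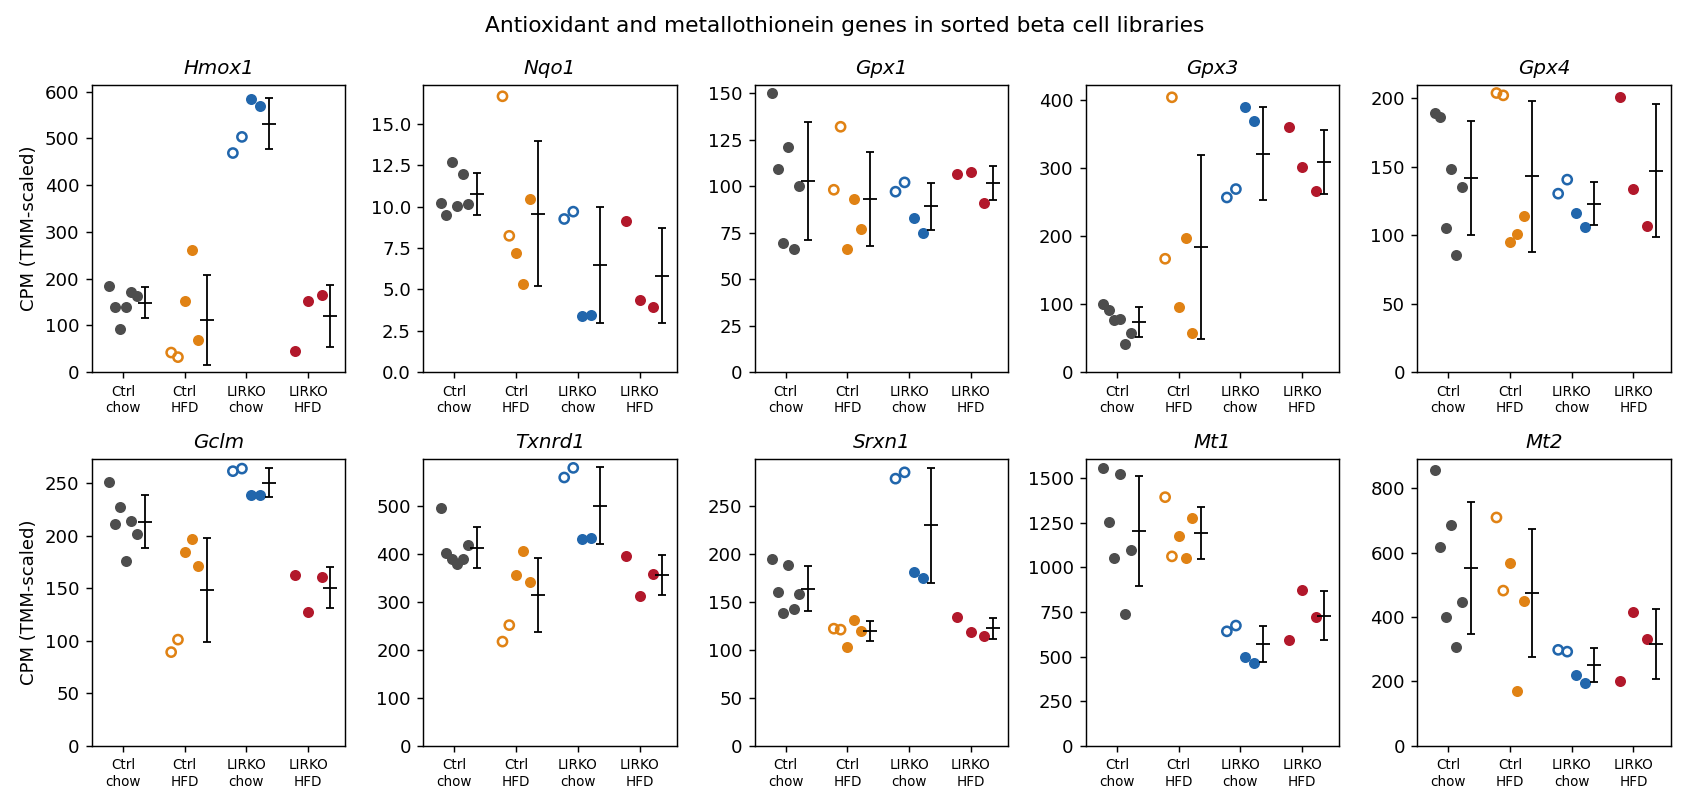
Level of each of the 10 genes in every library, in CPM on a linear axis from 0, by group. Points are libraries, the bar beside each group is the mean ± SD, and open points are replicates 1 and 2 of Ctrl HFD and of LIRKO chow, which stood apart from the others of their group or were near-identical. All 4 LIRKO chow libraries lie above all other libraries for Hmox1, from 468 to 583 CPM.

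Per kilobase of exon, the metallothioneins were the most abundant of the 10 transcripts in all 4 groups and Nqo1 the least. In Ctrl chow, Mt1 stood at 967 ± 248 CPM per kb (SD, n = 6) and Mt2 at 940 ± 349. Before scaling by length they stood at 1205 ± 309 and 553 ± 205 CPM. The exon length used covers all annotated transcripts. For Mt1 (1246 bases) and Gpx1 (1441 bases) it equals the whole gene from start to end, so their levels per kb may be understated. The order of Mt1 against Mt2, and the place of Gpx1, therefore depend on the length used. Hmox1 (84.6 ± 18.7), Gpx4 (82.2 ± 24.3) and Gpx1 (71.3 ± 22.1) followed within their spread of each other. Txnrd1 and Srxn1 were both near 58.1 to 58.2 CPM per kb, Gpx3 was at 40.8 ± 12.1 and Gclm at 33.9 ± 3.99. Nqo1, the quinone reductase that is a standard NRF2 target in other tissues, was at 6.94 ± 0.814. In LIRKO chow beta cells Hmox1 kept its place next to the metallothioneins, at 303 ± 31.1 CPM per kb. Below it the order changed, with Gpx3 moving from place 8 to 4, at 177 ± 37.6, ahead of Srxn1 at 81.5 ± 21.3.

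**Figure D2:**
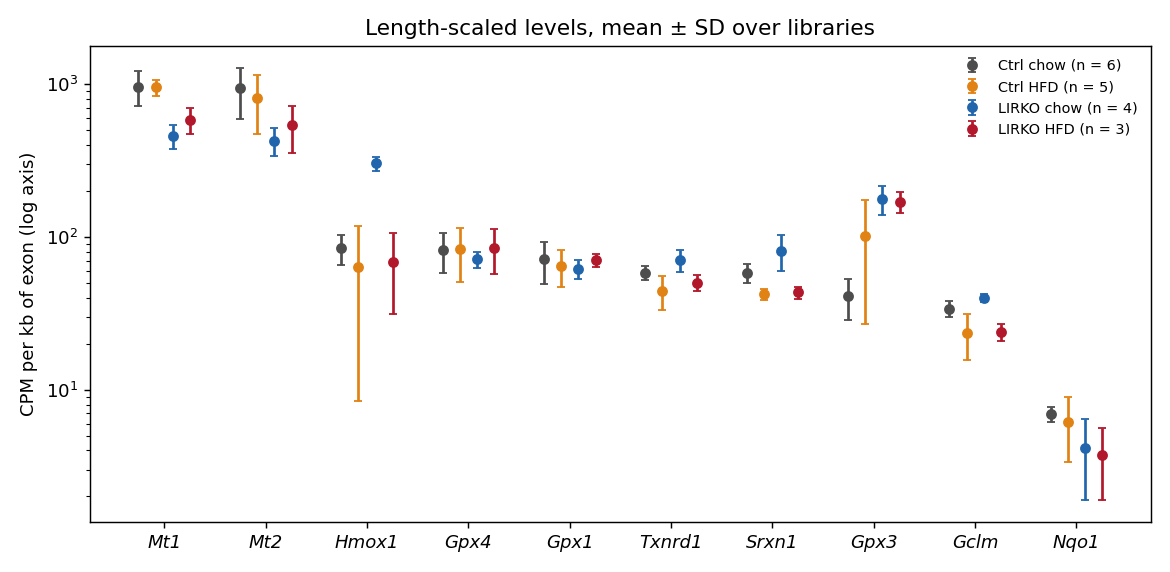
Mean level per kilobase of exon ± SD over the libraries of each group, on a log axis, with genes ordered by their level in Ctrl chow. Mt1 and Mt2 are highest in every group, and Nqo1 is lowest, between 3.75 and 6.94 CPM per kb.

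Hmox1 encodes the inducible heme oxygenase (ENSMUSG00000005413, chromosome 8, 75093621 to 75100589 on GRCm38). In Ctrl chow its lowest, median and highest levels were 92.2, 152 and 184 CPM. The LIRKO chow libraries held 468, 503, 583 and 570 CPM, so the groups did not overlap. This held for 4 of the 10 genes (Hmox1, Gpx3, Mt1 and Mt2) and for 11.7% of all tested genes. The log2 change was 1.84 ± 0.45 (SE), with an adjusted p of 0.0236 by edgeR. Macrophages also express Hmox1 strongly. The summed macrophage markers were 104 to 180 CPM in LIRKO chow and 125 to 218 in Ctrl chow. On HFD they were 145 to 303 CPM in Ctrl and 232 to 260 in LIRKO. Alpha cell markers summed to 936, 956, 2367 and 2561 CPM in the LIRKO chow libraries, in the same order, and 1015 to 2199 in Ctrl chow. Within Ctrl chow, replicates 5 and 6 had the lowest sums (1069 and 1015) and 172 and 164 CPM of Hmox1. The part of RNA from macrophages, alpha cells or other cell types in the Hmox1 values was not tested. With the near-identical LIRKO chow libraries summed into 2, the log2 change was 1.85 and the adjusted p 0.190. The call was also lost without Ctrl chow replicate 2 (adjusted p = 0.0501) and without LIRKO chow replicate 3 or 4 (0.0728 and 0.0609).

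On HFD the high Hmox1 level of LIRKO beta cells was not seen. LIRKO HFD libraries held 44.7, 152 and 164 CPM, all below the LIRKO chow libraries, and Ctrl HFD libraries 41.7, 31.8, 151, 262 and 69.4 CPM. In the same order, alpha cell markers summed to 964, 3270 and 4093 CPM in LIRKO HFD and 781, 1482, 4548, 4684 and 991 in Ctrl HFD. Their part in the Hmox1 values was not tested. The fitted HFD difference within LIRKO was −2.14 ± 0.58 on the log2 scale and did not pass in edgeR (adjusted p = 0.0633). The same difference passed with DESeq2 (adjusted p = 0.00318) and without Ctrl HFD replicates 1 and 2, which share the fit (0.00885). It passed in 6 of 24 alternative settings, and with the LIRKO chow pairs summed its adjusted p was 0.300. This comparison and LIRKO against Ctrl on chow share the LIRKO chow libraries. Between genotypes on HFD the log2 change was 0.11 ± 0.52, and its sign changed without Ctrl HFD replicates 1 and 2 (−0.41). The genotype by diet interaction (LIRKO minus Ctrl on HFD, less the same on chow) was −1.73 ± 0.71 for Hmox1 and did not pass (adjusted p = 0.853).

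Nqo1 (ENSMUSG00000003849, chromosome 8, 107388225 to 107403206) ranged from 9.50 to 12.7 CPM in Ctrl chow, with a median of 10.2. LIRKO chow replicates 1 and 2 held 9.26 and 9.70 CPM and replicates 3 and 4 held 3.37 and 3.46, so this group split by its near-identical pairs. No comparison passed for Nqo1, with log2 changes of −0.74 ± 0.35 for LIRKO on chow and −0.72 ± 0.40 for LIRKO on HFD (adjusted p = 0.261 and 0.713). The pair with less Nqo1 also had more endothelial marker RNA (190 and 161 CPM summed, against 18.9 and 22.9 in replicates 1 and 2). Alpha cell markers split the same way (2367 and 2561 CPM, against 936 and 956). Delta cell, PP cell, macrophage, fibroblast and duct markers were also higher in that pair. Beta cell and acinar markers were lower, the latter at 54.9 and 26.1 CPM against 216 and 269. The part of RNA from other cell types in this split was not tested.

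Gpx3 encodes a secreted, plasma-type glutathione peroxidase (ENSMUSG00000018339, chromosome 11, 54902453 to 54910377). Its level in Ctrl chow had a lowest, median and highest value of 40.7, 77.5 and 99.8 CPM. LIRKO chow libraries held 257, 269, 389 and 369 CPM, all above every Ctrl chow library. The log2 change of 2.12 ± 0.37 (adjusted p = 0.00245 by edgeR) passed in all 24 alternative settings, and with the pairs summed its adjusted p was 0.0338. LIRKO HFD libraries stayed in the same range, at 359, 301 and 266 CPM, and the HFD difference within LIRKO was −0.06 ± 0.45 (adjusted p = 0.956).

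In Ctrl beta cells Gpx3 rose on HFD, but unevenly. The Ctrl HFD libraries held 166, 404, 95.3, 197 and 57.6 CPM, so replicate 2 stood far above, and replicates 3 and 5 lay within the Ctrl chow range. The log2 change was 1.31 ± 0.35 (adjusted p = 0.0384 by edgeR), and Gpx3 was the 1 member among 10 to pass where 9.93% of all tested genes did. Without Ctrl HFD replicate 2 it was 0.80 (adjusted p = 0.112), and without replicates 1 and 2 together 0.70 (0.217). The call held in 14 of 24 alternative settings. It was also lost with the LIRKO chow pairs summed (adjusted p = 0.0644), with the 2 groups alone (0.105) and without Ctrl HFD replicate 1 (0.0980). The same was so without Ctrl chow replicate 1, 2, 5 or 6 (adjusted p = 0.0748, 0.0638, 0.0543 and 0.0888) or LIRKO HFD replicate 3 (0.0503). Endothelial markers summed to 166 to 324 CPM in Ctrl HFD and 39.1 to 213 CPM in Ctrl chow, and macrophage markers to 145 to 303 and 125 to 218 CPM; their part in the Gpx3 values was not tested. LIRKO HFD exceeded Ctrl HFD by 0.75 ± 0.42 (log2), which did not pass (adjusted p = 0.715). The interaction for Gpx3 was −1.37 ± 0.58 and did not pass (adjusted p = 0.867).

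Gpx1, the cytosolic glutathione peroxidase (ENSMUSG00000063856, chromosome 9, 108338903 to 108340343), and Gpx4, which reduces lipid peroxides in membranes and guards against ferroptosis (ENSMUSG00000075706, chromosome 10, 80047166 to 80056439), passed in no comparison. On chow, Gpx1 was at 103 ± 31.9 CPM in Ctrl (SD, n = 6) and 89.1 ± 12.6 in LIRKO (n = 4). On HFD it was at 93.2 ± 25.1 in Ctrl (n = 5) and 102 ± 9.30 in LIRKO (n = 3). Its 4 pairwise log2 changes lay between −0.20 and 0.19, with an SE of 0.20 to 0.25. Gpx4 was at 142 ± 41.9 and 123 ± 15.4 CPM on chow, and at 143 ± 55.1 and 147 ± 48.6 CPM on HFD, Ctrl first. In Ctrl HFD, replicates 1 and 2 held 204 and 202 CPM of Gpx4 and the other 3 libraries 95.1 to 114. Without those 2 libraries the HFD difference in Ctrl turned from 0.01 ± 0.25 to −0.41, and neither value passed. A Gpx4 pseudogene copy is annotated, so reads of Gpx4 may be split by the counting.

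**Figure D3:**
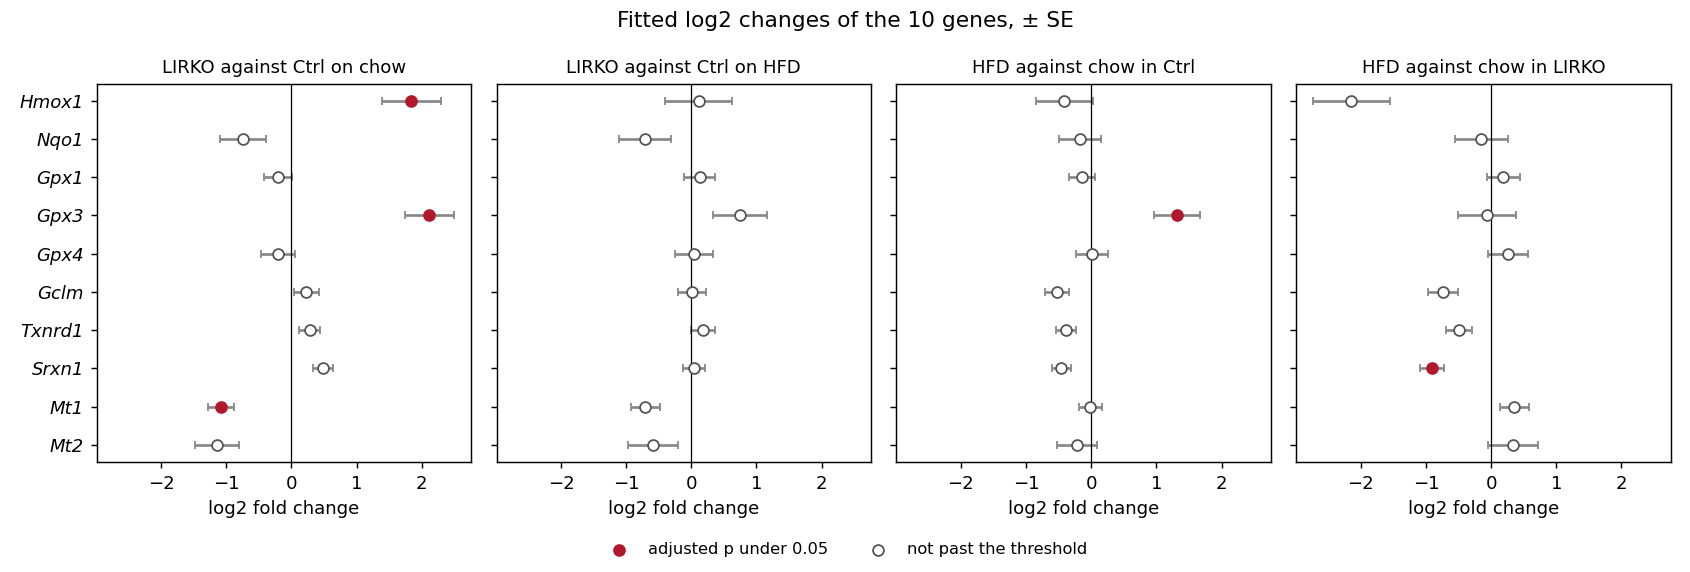
Fitted log2 fold changes of the 10 genes with their standard errors in the 4 pairwise comparisons. Filled red points passed at an adjusted p under 0.05. LIRKO against Ctrl on chow has filled points for Hmox1, Gpx3 and Mt1, the diet panels have 1 each, and the genotype panel on HFD has none.

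Gclm (ENSMUSG00000028124, chromosome 3, 122245557 to 122270732), Txnrd1 (ENSMUSG00000020250, chromosome 10, 82833951 to 82897712) and Srxn1 (ENSMUSG00000032802, chromosome 2, 152105516 to 152111376) had lower fitted levels on HFD in both genotypes. They are classical NRF2 targets: the modifier subunit of the enzyme that limits glutathione synthesis, cytosolic thioredoxin reductase, and the enzyme that restores over-oxidised peroxiredoxins. Of these 6 diet differences, that of Srxn1 in LIRKO passed. The 2 diet comparisons share no libraries.

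Srxn1 in LIRKO chow stood at 279, 285, 181 and 175 CPM, again split by the near-identical pairs, and in LIRKO HFD at 135, 118 and 114 CPM, with no overlap. The log2 change was −0.91 ± 0.18 (adjusted p = 0.0185 by edgeR), and Srxn1 was the 1 member to pass where 2.03% of tested genes did. Hmox1, Gclm and Txnrd1 did not overlap either (4 of 10), but neither did 34.4% of all tested genes in this comparison. With the pairs summed the change was −0.92 and the adjusted p 0.147. Leaving out LIRKO chow replicate 1 or 2 (adjusted p = 0.0731 and 0.0761) or LIRKO HFD replicate 1, 2 or 3 (0.0501, 0.101 and 0.0813) also ended the call. Markers of other cells moved with these values: endothelial markers summed to 263 to 330 CPM in LIRKO HFD, against 18.9 and 22.9 in LIRKO chow replicates 1 and 2 and 190 and 161 in replicates 3 and 4. Fibroblast markers (9 genes) summed to 32.9 to 41.4 CPM in LIRKO HFD and 1.32 to 23.8 in LIRKO chow, and macrophage markers to 232 to 260 and 104 to 180 CPM. In none of these lists was a marker at 0 across either group, and their part in the Srxn1 difference, and in the other HFD differences within LIRKO, was not tested.

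In Ctrl beta cells Srxn1 ranged from 139 to 195 CPM on chow, with a median of 159, and was at 122, 121, 103, 131 and 120 CPM on HFD. The groups did not overlap, which held for 3.56% of tested genes, and the log2 change of −0.46 ± 0.14 missed the threshold (adjusted p = 0.0502). Between genotypes Srxn1 was higher in LIRKO on chow by 0.49 ± 0.15 without passing (adjusted p = 0.0695). On HFD the genotype difference was 0.04 ± 0.17 (adjusted p = 0.982). The interaction was −0.45 ± 0.23 (adjusted p = 0.921).

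Gclm was at 213 ± 25.1 CPM in Ctrl chow and 251 ± 13.9 in LIRKO chow. On HFD it was at 148 ± 49.7 in Ctrl and 150 ± 19.5 in LIRKO, and the LIRKO libraries (163, 128 and 160 CPM) lay below all 4 of LIRKO chow (262, 264, 239 and 238). The log2 differences on HFD were −0.52 ± 0.18 in Ctrl (adjusted p = 0.0629) and −0.74 ± 0.23 in LIRKO (0.105), and neither passed. In Ctrl HFD, replicates 1 and 2 held 89.2 and 101 CPM and the other 3 libraries 171 to 197; without the former the difference in Ctrl was −0.17. Without those 2 libraries the difference in LIRKO passed, at −0.73 (adjusted p = 0.00594), but it did so in only 4 of 24 alternative settings, and with the LIRKO chow pairs summed its adjusted p was 0.455.

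Txnrd1 was at 412 ± 42.8 CPM on chow and 315 ± 77.8 on HFD in Ctrl, and at 501 ± 79.6 and 356 ± 41.7 CPM in LIRKO. Within groups its libraries were split. LIRKO chow replicates 1 and 2 held 559 and 579 CPM and replicates 3 and 4 held 431 and 433. Ctrl HFD replicates 1 and 2 were the lowest of their group, at 217 and 252 CPM, as they were for Gclm but not for Srxn1. The HFD differences of −0.39 ± 0.15 in Ctrl and −0.49 ± 0.20 in LIRKO did not pass (adjusted p = 0.0915 and 0.211). Without Ctrl HFD replicates 1 and 2 the difference in Ctrl was −0.12.

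Mt1 (ENSMUSG00000031765, chromosome 8, 94179082 to 94180327) and Mt2 (ENSMUSG00000031762, chromosome 8, 94172664 to 94173568) are neighbours on the same strand and encode the widely expressed metallothioneins. Both were lower in LIRKO than in Ctrl on either diet by their fitted values. Since the pair is known to be driven through metal response elements, and Srxn1 and Gclm through antioxidant response elements, the 250 bases before their RefSeq start sites (GRCm38.p6) are shown, 5′ to 3′ on the strand of the gene. The RefSeq starts of Mt1, Mt2 and Srxn1 lie some bases from the GENCODE starts given above, and that of Gclm is the same. Capitals mark any match on either strand to the core of a metal response element (TGCACNC or TGCGCNC), to the classical antioxidant core TGACNNNGC, or to the core bound by NRF2 with small MAF proteins (TGACTCAGC or TGAGTCAGC). The last contains the AP-1 site TGACTCA or TGAGTCA, and was added after the windows had been read.
Mt1, chr8:94178839-94179088, + strand: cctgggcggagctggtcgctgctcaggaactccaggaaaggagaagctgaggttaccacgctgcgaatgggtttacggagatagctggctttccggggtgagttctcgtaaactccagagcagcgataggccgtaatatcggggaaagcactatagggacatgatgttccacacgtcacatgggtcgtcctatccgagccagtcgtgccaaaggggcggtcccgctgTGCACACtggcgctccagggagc
Mt2, chr8:94172368-94172617, + strand: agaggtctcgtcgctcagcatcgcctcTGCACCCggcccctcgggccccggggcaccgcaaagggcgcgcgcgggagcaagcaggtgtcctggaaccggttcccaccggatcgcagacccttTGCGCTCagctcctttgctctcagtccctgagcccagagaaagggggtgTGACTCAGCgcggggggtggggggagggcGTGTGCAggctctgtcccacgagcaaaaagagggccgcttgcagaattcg
Srxn1, chr2:152105274-152105523, + strand: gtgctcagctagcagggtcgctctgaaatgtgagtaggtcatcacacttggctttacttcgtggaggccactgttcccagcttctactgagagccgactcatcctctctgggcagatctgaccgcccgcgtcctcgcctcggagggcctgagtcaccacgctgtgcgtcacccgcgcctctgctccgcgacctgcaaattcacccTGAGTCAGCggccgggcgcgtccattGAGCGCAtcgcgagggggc
Gclm, chr3:122245307-122245556, + strand: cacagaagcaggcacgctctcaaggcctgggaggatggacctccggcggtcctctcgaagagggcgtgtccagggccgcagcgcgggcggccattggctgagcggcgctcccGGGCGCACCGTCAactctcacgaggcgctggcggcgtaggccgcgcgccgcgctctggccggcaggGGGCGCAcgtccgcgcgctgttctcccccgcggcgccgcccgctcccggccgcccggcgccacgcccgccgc

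Metal response cores were counted in 300-base windows that also take in the 50 bases after the start. Mt2 held 4, of which 1 lies after the RefSeq start, and Mt1 held 3, of which 2 do. Gclm also held 3, of which 1 lies after its start, and Srxn1 held 1. Of all 32851 such windows, 25.7% held at least 1 metal response core and 0.517% held 4 or more. Mt2, at 79 bases before its start, and Srxn1, at 45 bases, each held 1 NRF2 and small MAF core, which 0.822% of all windows did. That core was added after the windows had been read, and the cut of 4 is the count in Mt2. These shares therefore do not show that the matches are unusual. The classical antioxidant core was in 12.4% of all windows, and in those of Mt2, Gclm, Srxn1 (after its start) and 1 of the 3 windows of Txnrd1 (TGACAAAGC). In Mt2 it is the same match as the NRF2 and small MAF core, and in Gclm it overlaps a metal response core. Of the 10 genes, 9 had at least 1 window, and the windows of Nqo1, Gpx1, Gpx3 and Gpx4 held none of these cores. A match describes the letters and is not a measured binding site.

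Mt1 ranged from 740 to 1556 CPM in Ctrl chow, with a median of 1178. In LIRKO chow it stood at 642, 674, 499 and 466.4 CPM, all below Ctrl chow. The log2 change was −1.08 ± 0.20 (adjusted p = 0.00332 by edgeR), and it passed in 23 of 24 alternative settings. With the near-identical pairs summed it was −1.07 with an adjusted p of 0.0821. Mt2 ranged from 307 to 858 CPM in Ctrl chow, with a median of 532, and was at 298, 293, 219 and 195 CPM in LIRKO chow, again below all Ctrl chow libraries. Its larger spread left a log2 change of −1.14 ± 0.34 that missed the threshold (adjusted p = 0.0623), while DESeq2 called it (0.0151). It was called in 5 of 24 alternative settings, and with the pairs summed its adjusted p was 0.409.

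On HFD, Mt1 was at 1394, 1062, 1177, 1053 and 1280 CPM in Ctrl and at 594, 872 and 724 in LIRKO, with no overlap, as for 5.01% of tested genes. The log2 change of −0.71 ± 0.22 did not pass (adjusted p = 0.239). None of the 10 genes passed between genotypes on HFD in edgeR, where 0.508% of all tested genes did. Of the 10, 1, Mt1, had an unadjusted p under 0.05, as had 1507 of all 19284 tested genes. DESeq2 also called 0 of the 10 there. Mt2 was at −0.59 ± 0.38 in that comparison (adjusted p = 0.749).

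Diet left both metallothioneins without a call. The HFD differences in Ctrl were −0.01 ± 0.18 for Mt1, a value whose sign changed with the scaling of libraries, and −0.21 ± 0.31 for Mt2. In LIRKO they were 0.36 ± 0.23 and 0.34 ± 0.39, and the 4 adjusted p-values ran from 0.433 to 0.962. The Mt1 to Mt2 ratio of CPM was 2.26 ± 0.303 in Ctrl chow (SD, n = 6), 2.28 ± 0.0984 in LIRKO chow (n = 4) and 2.40 ± 0.470 in LIRKO HFD (n = 3). In Ctrl HFD it was 1.96, 2.20, 2.07, 6.21 and 2.85, where replicate 4 held 170 CPM of Mt2 and 1053 CPM of Mt1. A noncoding gene antisense to Mt2, Gm45774, reached 57.3 CPM, and since the strand setting of the counting is not known, its reads and those of Mt2 cannot be told apart.

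Of 84 other genes of these pathways, 81 were tested, and in LIRKO against Ctrl on chow 6 were higher and 0 lower, at a median log2 change of −0.04 against −0.02 over all genes. Of all tested genes 5.15% passed there (569 higher and 424 lower). The 4 with the smallest p are described. Slc39a10, a zinc importer of the plasma membrane, rose from 13.01 ± 4.21 to 33.7 ± 0.588 CPM (log2 change 1.37 ± 0.22, adjusted p = 0.00135 by edgeR). Osgin1, an NRF2 target that restrains growth, rose from 21.7 ± 2.54 to 46.8 ± 7.46 CPM (1.11 ± 0.15, adjusted p = 0.00036). Sod3, the secreted superoxide dismutase, rose by 2.86 ± 0.40 but from a very low level, 0.122 ± 0.105 to 0.936 ± 0.183 CPM (adjusted p = 0.000451). These 3 also passed with the LIRKO chow pairs summed (adjusted p = 0.0328, 0.00981 and 0.0109). Maff, a small MAF factor that pairs with NRF2, rose by 0.86 ± 0.19 (adjusted p = 0.0131), though not with the pairs summed (0.144).

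The genes of NRF2, KEAP1 and MTF1 did not pass on chow between genotypes. Nfe2l2, which encodes NRF2, was at 57.5 ± 3.37 against 52.4 ± 5.44 CPM (LIRKO chow against Ctrl chow) and its inhibitor gene Keap1 at 93.7 ± 7.41 against 94.2 ± 9.77. The log2 changes of 0.13 ± 0.15 and −0.01 ± 0.11 did not pass (adjusted p = 0.679 and 0.984). The zinc sensor gene Mtf1 was at −0.11 ± 0.10 (adjusted p = 0.592). The ferritin heavy chain gene Fth1, which stores the iron that heme breakdown frees, was at 363 ± 47.3 against 576 ± 123 CPM, and its log2 change of −0.67 ± 0.19 missed the threshold (adjusted p = 0.0549).

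**Figure D4:**
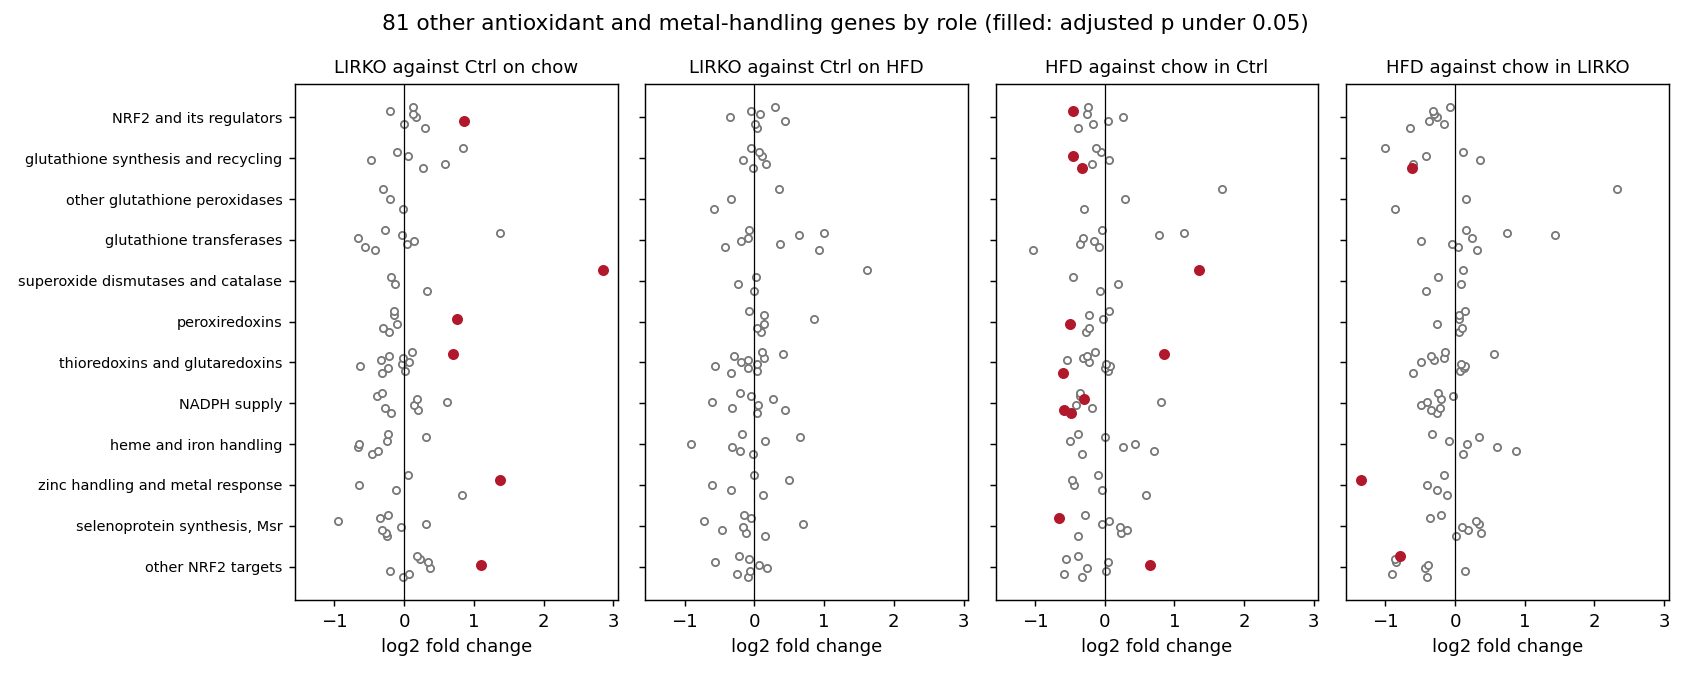
Log2 fold changes of 81 other antioxidant and metal-handling genes, grouped by role, in the 4 pairwise comparisons. Each point is a gene, and filled red points passed at an adjusted p under 0.05. In LIRKO against Ctrl on chow the 6 filled points lie to the right of 0, and in HFD against chow in LIRKO the 3 filled points lie to the left.

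In Ctrl mice on HFD, 9 of the 81 genes fell and 3 rose, at a median of −0.18 against 0.04 over all genes. Of all tested genes 9.93% passed there (1075 higher and 839 lower). The 4 with the smallest p were Txnip, Osgin1, Glrx and Sephs2. Txnip, the thioredoxin inhibitor, rose from 51.9 ± 10.3 to 93.7 ± 23.6 CPM (0.85 ± 0.17, adjusted p = 0.02 by edgeR), and Osgin1 rose by 0.65 ± 0.14 (0.0296). Glrx, a glutaredoxin, fell by 0.59, from 48.9 ± 9.19 to 32.4 ± 5.30 CPM (adjusted p = 0.0317). Sephs2, which makes the selenium donor for selenoproteins such as the glutathione peroxidases, fell from 91.1 ± 8.82 to 58.0 ± 13.7 CPM (adjusted p = 0.0338). Without Ctrl HFD replicates 1 and 2, Txnip alone of these 12 passed (adjusted p = 0.0472). The same was so with the LIRKO chow pairs summed (0.0462), and with the 2 groups alone none of the 12 passed. Of 24 alternative settings, Txnip passed in 21, Osgin1 and Glrx in 16, Sephs2 in 15 and Pgd, the least stable, in 4.

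In LIRKO mice on HFD, 3 of the 81 fell and 0 rose, at a median of −0.15 against 0.03 over all genes. Of all tested genes 2.03% passed there (204 higher and 188 lower). Slc39a10 was lower, at 13.2 ± 1.76 CPM (−1.35 ± 0.28, adjusted p = 0.0205 by edgeR). This difference and its difference between genotypes on chow share the LIRKO chow libraries. Ugdh, which makes the substrate for glucuronidation, fell by 0.79 and Chac1, which degrades glutathione, by 0.62. These 3 did not pass with the LIRKO chow pairs summed (adjusted p = 0.195, 0.201 and 0.201). Between genotypes on HFD, 0 of the 81 passed in edgeR, where 0.508% of all tested genes did. An unadjusted p under 0.05 was seen for 12 of the 81 and for 1507 of all 19284 tested genes, and DESeq2 called 4 of the 81.

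The interaction test called 0 of the 10 genes and 0 of the 81, and 0.00519% of all tested genes. Of the 10, Hmox1 and Gpx3 had an unadjusted p under 0.05 (0.0248 and 0.0286), as had 1065 of all 19284 tested genes. DESeq2 called 0 of the 10. A difference in the genotype effect between diets was therefore not shown for any member.

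By Pearson's r of log2 CPM over the 18 libraries, among 11230 genes at a mean log2 CPM of at least 2, the patterns most like that of Hmox1 were Diras2 (0.97), Spry2 (0.96) and Mthfd1l (0.96). For Gpx3 they were Etv1 (0.96), Kdelr3 (0.94) and Edem2 (0.92), for Srxn1 Taf11 (0.91), Hax1 (0.89) and Gde1 (0.87), and for Mt1 Uchl1 (0.88), B4galnt4 (0.87) and 1500015A07Rik (0.86). These are descriptions over libraries that share groups and scaling, and carry no test.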

How the data were processed

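The authors deposited raw counts per Ensembl gene for 18 libraries. The submitters' processing notes name STAR, featureCounts and GRCm38. Their versions, the annotation release and whether counting used strand: not given in the sources used here. Of 53090 IDs, 52489 matched a GENCODE M21 symbol (others at most 0.0176% of a library's counts). Genes kept by filterByExpr (19284) were tested with edgeR 4.0.16 in R 4.3.3, with TMM scaling, glmQLFit and glmQLFTest, 1 coefficient per group, two-sided, and Benjamini-Hochberg adjustment (threshold 0.05). The test was checked on simulated counts. DESeq2 1.42.0, its size factors, no filter, the compared groups alone, summed LIRKO chow pairs and left-out libraries were alternatives. Replicate numbers follow deposition order. Members, gene lists and alternatives were chosen with earlier results of these data known. All 10 members are named; of the other pathway genes, up to 4 per comparison past the threshold by smallest p, and those whose role a member result turns on. Counting error is small at these depths; the number of libraries limits precision.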

Additional observations from a re-analysis of the deposited data

Results flagged for a closer look

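Within groups of 4 to 6 libraries, a sample was flagged where its gap to the nearest other exceeded Dixon's 95% critical value. Txnrd1 was flagged in Ctrl chow replicate 1, at 495 CPM against 379 to 419 in the other 5. The Mt1 to Mt2 ratio was flagged in Ctrl HFD replicate 4, at 6.21 against 1.96 to 2.85 in the other 4. Of 33 groups checked 2 were flagged, and chance flags about 1 in 20.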

How the results depend on the processing

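The labels carry no replicate numbers or pairing. No paired analysis was possible because the numbers only follow the order of deposition. Counts of genes called among all tested, the 10 members and the 81 pathway genes, in that order, moved as follows; the cause was not tested except where fewer samples enter.

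LIRKO against Ctrl on chow called 993, 3 and 6. DESeq2 gave 1649, 5 and 11, the 2 groups alone 1653 genes and 14 pathway genes, summed pairs 193, 1 and 3, and leaving out Ctrl HFD replicates 1 and 2 together 1765, 5 and 11. Single libraries left out gave 431 to 1126, 2 to 4 and 3 to 8.

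LIRKO against Ctrl on HFD called 98, 0 and 0. DESeq2 gave 316 genes and 4 pathway genes, the 2 groups alone 19 genes, summed pairs 54, and without Ctrl HFD replicates 1 and 2 193 genes and 1 pathway gene. Single libraries left out gave 10 to 162, 0 and 0 to 2.

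HFD against chow in Ctrl called 1914, 1 and 12. DESeq2 gave 3959, 3 and 20, no filter 457 genes and 3 pathway genes, the 2 groups alone 1, 0 and 0, summed pairs 114, 0 and 1, and without Ctrl HFD replicates 1 and 2 34, 0 and 1. Single libraries left out gave 69 to 3877, 0 to 4 and 0 to 21.

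HFD against chow in LIRKO called 392, 1 and 3. DESeq2 gave 1059, 3 and 6, no filter 250 genes, the 2 groups alone 3403, 3 and 19, summed pairs 7, 0 and 0, and without Ctrl HFD replicates 1 and 2 1191, 3 and 9. Single libraries left out gave 55 to 502, 0 to 3 and 0 to 4. The interaction called 1, 0 and 0: DESeq2 gave 42 genes and 1 pathway gene, summed pairs 0, without Ctrl HFD replicates 1 and 2 8, and single libraries left out 0 to 3.

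Sign changes were confined, among the log2 changes followed here, to uncalled values. Without Ctrl HFD replicates 1 and 2, LIRKO against Ctrl on HFD became −0.29 for Gclm, −0.41 for Hmox1 and −0.049 for Txnrd1, and HFD in Ctrl became −0.41 for Gpx4, 0.16 for Hmox1 and 0.0041 for Mt1. HFD in Ctrl for Mt1 was 0.00901 with DESeq2 size factors, 0.00901 with DESeq2 and 0.026 with the 2 groups alone, and for Gpx4 −0.038 with no filter. With single libraries left out, LIRKO against Ctrl on HFD ranged from −0.12 to 0.14 for Gclm, −0.25 to 0.23 for Gpx4, −0.18 to 0.71 for Hmox1 and −0.035 to 0.089 for Srxn1. HFD in Ctrl ranged from −0.15 to 0.13 for Gpx4, −0.12 to 0.072 for Mt1 and −0.40 to 0.0016 for Mt2. HFD in LIRKO ranged from −0.18 to 0.050 for Gpx3, −0.041 to 0.44 for Gpx4 and −0.63 to 0.12 for Nqo1.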

Other observations

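Of the 84 other pathway genes, Gstp1, Txnrd2 and Slc30a1 were listed at 0 counts in all 18 libraries and were not tested. Whether these zeros come from the cells or from the counting was not tested, so they are not read as absent expression. Across the members, LIRKO chow replicates 1 and 2 exceeded replicates 3 and 4 for Srxn1, Txnrd1, Gclm, Nqo1, Gpx1, Gpx4, Mt1 and Mt2, and were below them for Hmox1 and Gpx3. LIRKO HFD replicate 1 held 44.7 CPM of Hmox1 against 152 and 164 in the other 2 libraries, and 9.14 CPM of Nqo1 against 4.38 and 3.96. Its alpha cell markers summed to 964 CPM, against 3270 and 4093 in the other 2.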
